A study of Rattus norvegicus with 4 samples.

Results

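Axon guidance genes were examined in PC12 cells, which come from a rat pheochromocytoma, a chromaffin cell tumour that makes catecholamines. The 10 genes were chosen by name, as a family list around Slit3, whose lower signal in cells with a MAX plasmid was already known from these arrays: the ligand genes Slit1, Slit2, Slit3, Ntn1 and Sema3a, and the receptor genes Robo1, Robo2, Dcc, Unc5a and Unc5b. The difference between the groups in these genes is therefore given as a description and not as a test. Of the 10 genes, 9 had a probe, 1 each, named through its RefSeq accession, and no Robo2 probe was analysed here. Among the 25356 genes tested in the whole series, 5 of these 10 were included. Of the 25356, 6316 carried a symbol, and each of the others was an accession or identifier without a symbol here, counted as a gene. Shares of all genes tested are over this whole set, whereas the listed genes all carry a symbol.

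The MAX vector cells were PC12 cells transfected with a MAX expression plasmid (2 arrays), and the empty vector cells were PC12 cells transfected with the vector alone (2 arrays). Parental PC12 cells carry a defective Max gene, whose product is the obligate DNA-binding partner of MYC proteins, so both groups share that background, and both were nucleofected and then kept under drug selection according to the labels. A group consists of 1 transfected line, sampled once at passage 8 and once at passage 13, so the replicate spread is that between passages of a line and not between independent transfections. Total RNA was hybridised to one-colour (Cy3) Agilent arrays. The processed signal is a spot's brightness in arbitrary units after background subtraction, and "well above background" is the scanner software's own call.

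Slit proteins are secreted ligands that bind Robo receptors and repel growing axons and migrating cells, and heparan sulfate on the cell surface helps them bind. Netrin-1, the product of Ntn1, attracts axons through the receptor DCC and repels them through UNC5 receptors, while semaphorin 3A collapses growth cones through neuropilin-1 and plexin co-receptors. These systems act in the wiring of the nervous system, the sympathetic branch included, and several of their ligands are also made by tumour cells.

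Slit2 and Slit3 are also host genes of the 2 copies of miR-218, which are shown because they are a sequence feature that these 2 Slit genes share. In RefSeq's GRCr8 annotation, Mir218-1 lay within Slit2 (chr14:66922348-66922457, minus strand), together with Mir3565 on the opposite strand, and Mir218-2 lay within Slit3 (chr10:20572523-20572632, plus strand). The mature sequences are given 5′ to 3′ with the seed, bases 2 to 8, in capitals. Of these, rno-miR-218b is annotated to Mir3565, and the others to the hairpins Mir218-1 or Mir218-2.
rno-miR-218a-5p: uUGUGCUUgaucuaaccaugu
rno-miR-218a-1-3p: aAACAUGGuuccgucaagcac
rno-miR-218a-2-3p: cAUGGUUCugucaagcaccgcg
rno-miR-218b: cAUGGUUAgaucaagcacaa
The 5p sequence is identical from both hairpins, with the seed UGUGCUU, whereas the 3p products of the 2 hairpins carry the different seeds AACAUGG and AUGGUUC. In human cells miR-218 is known to repress Robo1. The level of miR-218 was not analysed here.

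The 250 bases before the Slit3 start site are shown because MAX-containing dimers are known to bind the E-box CACGTG. They are credited to RefSeq (GRCr8, chr10:20075679-20075928, plus strand), with the letters CCAAT and GGGCGG in capitals.
Slit3 upstream: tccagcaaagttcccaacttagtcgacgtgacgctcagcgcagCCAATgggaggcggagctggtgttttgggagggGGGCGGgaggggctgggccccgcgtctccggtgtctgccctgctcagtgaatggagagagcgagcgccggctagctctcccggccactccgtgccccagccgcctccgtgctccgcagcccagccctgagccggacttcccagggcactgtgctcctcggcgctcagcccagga
CACGTG, a palindrome that reads the same on both strands, did not occur in this window, nor did the related letters CACGCG or CATGTG on either strand. CACGTG occurred in 5.6% of 33469 windows of the same length before the start sites of all genes, CACGCG in 7.1% and CATGTG in 12.1%. CCAAT occurred once in the Slit3 window and in 34% of all windows on either strand, and GGGCGG once and in 30.5%. Of the 10 genes, 6 had a window in this table, and 0 of these 6 held CACGTG. A window without these letters says nothing about whether the factor binds elsewhere.

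Markers of chromaffin cells were seen in part. Of 13 chromaffin and PC12 markers with a probe, 10 had signals well above background on all 4 arrays. These included Th and Ddc, which encode the first enzymes of catecholamine synthesis. The 10 ranged from bright to dim, with Ddc at 4570 to 11400, Chga at 28.7 to 67.1 and Chgb at 32.7 to 49.3. Dbh read 2.56 and 14.1 in MAX vector cells and 25 and 11 in empty vector cells. Slc18a1 read 6.68 and 11 against 23 and 11.2. Both were well above background on only 1 MAX vector array, though on both empty vector arrays. The probe of the synaptic vesicle gene Syp was so on 0 of 4. The Max probe was well above background on 0 of 4 arrays, with signals of 3.01 and 2.71 in MAX vector cells and 2.14 and 2.28 in empty vector cells, so this probe gives no check of the labels, and its place on the plasmid's insert is not known here. On an array, 64.46% (MAX vector replicate 1) to 71.56% (empty vector replicate 1) of 40923 probes exceeded background by that call. The lowest signal so called was 11.73 and 10.13 on the MAX vector arrays and 7.57 and 9.11 on the empty vector arrays. A dim probe could thus be called on 1 array and not on another at a like signal. MAX vector replicate 1 was alone on a second slide, while the other 3 arrays shared the first.

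Among the ligands, Slit3 and Sema3a had the lower signals in MAX vector cells. The Slit3 probe read 826 and 922 in MAX vector cells, against 2427 and 2378 in empty vector cells. Relative to each array's 75th percentile, which sets the arrays to a common scale, these were 0.49 and 0.47 on the log2 scale in MAX vector cells and 1.79 and 1.96 in empty vector cells. Both MAX vector arrays thus lay below both empty vector arrays, and the gap between the groups was wider than the gaps between replicates, 0.02 and 0.17. The raw median pixel values of the same spots showed the same order, with 971 and 1030.5 in MAX vector cells and 2815 and 2705.5 in empty vector cells. Slit3 fell by 1.40 ± 0.10 on the log2 scale (SE, n = 2 arrays per group), or 2.64-fold, with a 95% interval of the log2 fold change from -1.69 to -1.11.

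Sema3a, which encodes semaphorin 3A, read 113.5 and 118.1 in MAX vector cells, against 274.3 and 249.1 in empty vector cells. On the common log2 scale these were -2.38 and -2.50 in MAX vector cells and -1.35 and -1.30 in empty vector cells, so these groups did not overlap either. Sema3a fell by 1.11 ± 0.10 on the log2 scale, or 2.16-fold, with a 95% interval from -1.38 to -0.85. Like Slit3 it was well above background on every array.

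**Figure D1:**
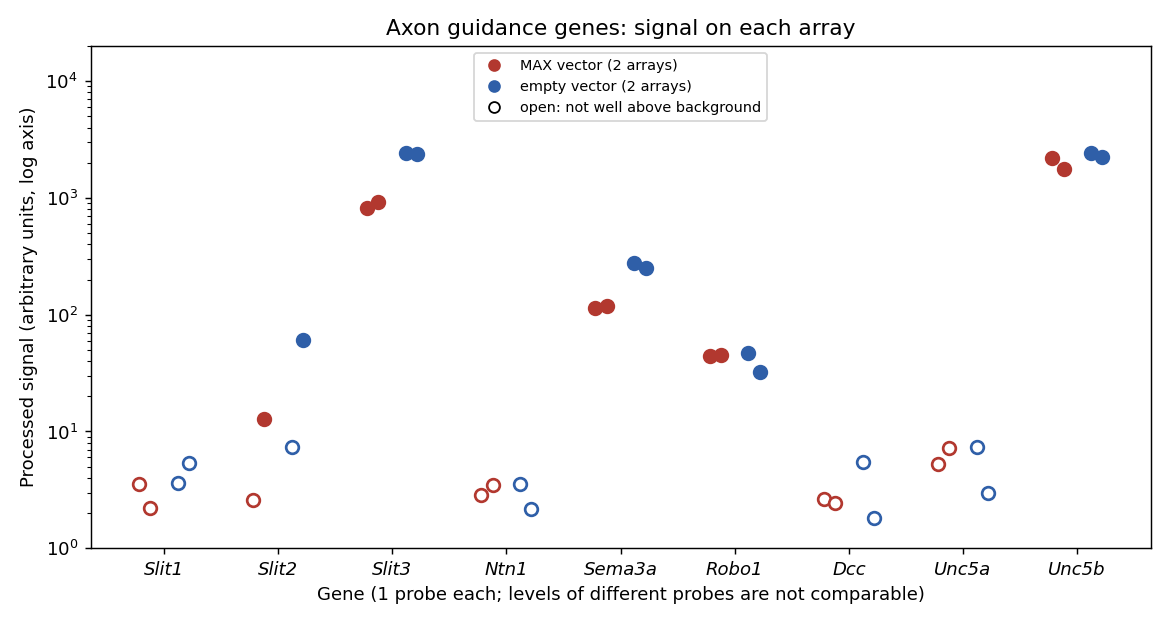
Processed signal (log axis) of the probe of each of the 9 genes on the 2 MAX vector arrays (left, red) and the 2 empty vector arrays (right, blue), with open circles where the probe was not well above background. Slit3 and Sema3a sit lower on both MAX vector arrays, Unc5b and Robo1 are seen on every array, and Slit2 is above background on 1 array of each group.

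Slit2, which encodes a second Slit ligand, differed widely between replicates. Its probe read 2.58 and 12.7 in MAX vector cells and 7.38 and 61.0 in empty vector cells, and it was well above background only on replicate 2 of each group. The replicates within a group differed by 2.12 in MAX vector cells and by 3.24 in empty vector cells on the log2 scale, with replicate 2 higher in both. With replicate number as a block in the fit, Slit2 had -1.83 ± 0.34 and did not pass (adjusted p = 0.222 in limma). Without the block the log2 fold change was -1.83 ± 1.38, and its 95% interval ran from -5.69 to 2.03. Both fits rest in part on signals near background. Slit1, which encodes a Slit ligand made mainly in brain, and Ntn1 were well above background on 0 of 4 arrays, so no fold is given for them. Their signals ran from 2.22 to 3.56 (Slit1) and from 2.86 to 3.48 (Ntn1) in MAX vector cells, and from 3.59 to 5.37 and from 2.17 to 3.58 in empty vector cells.

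Among the receptors, Unc5b and Robo1 were above background throughout and did not pass. Unc5b, a netrin receptor gene of the repulsive class, read 2207 and 1765 in MAX vector cells and 2419 and 2227 in empty vector cells. On the common log2 scale the groups overlapped, with 1.90 and 1.41 in MAX vector cells and 1.79 and 1.86 in empty vector cells. The log2 fold change was -0.17 ± 0.20, with a 95% interval from -0.72 to 0.38. It was 0.08 without MAX vector replicate 2 and -0.42 without MAX vector replicate 1, so its sign depends on which MAX vector array is used.

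Robo1, which encodes a Slit receptor, read 44.1 and 45.4 in MAX vector cells and 46.8 and 32.2 in empty vector cells. After scaling these were -3.74 and -3.87 in MAX vector cells and -3.90 and -4.25 in empty vector cells, so that both MAX vector arrays lay just above both empty vector arrays. Its log2 fold change was 0.27 ± 0.16, with a 95% interval from -0.17 to 0.70. Dcc and Unc5a, the genes of the other netrin receptors examined, were well above background on 0 of 4 arrays, with signals of 1.83 to 7.41 across both genes and all arrays. Of the 4 receptor genes of the list with a probe, Robo1 and Unc5b were thus those seen in both groups.

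In the fit over all genes, limma with Benjamini-Hochberg adjustment called 2 of the 5 genes at a threshold of 0.05, 0 higher and 2 lower, and 3 did not pass. Over all genes tested 0.840% passed, 0.576% higher and 0.264% lower, which is given for scale only, since the list was built around Slit3. Groups that did not overlap, with MAX vector cells lower, were found in 26.0% of all genes tested and in 2 of these 5, and with MAX vector cells higher in 24.2% and in 1 of these 5, Robo1. An unadjusted p under 0.05 was reached by 16.1% of all genes and by 2 of these 5. Of all genes tested, 0.62% had a log2 fold change as low as that of Slit3 or lower, and the median of all genes was -0.019. Ordered by size of the fall, among lower genes that passed, carried a symbol and were seen above background on all 4 arrays, Slit3 stood at rank 10 and Sema3a at rank 17 of 18.

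**Figure D2:**
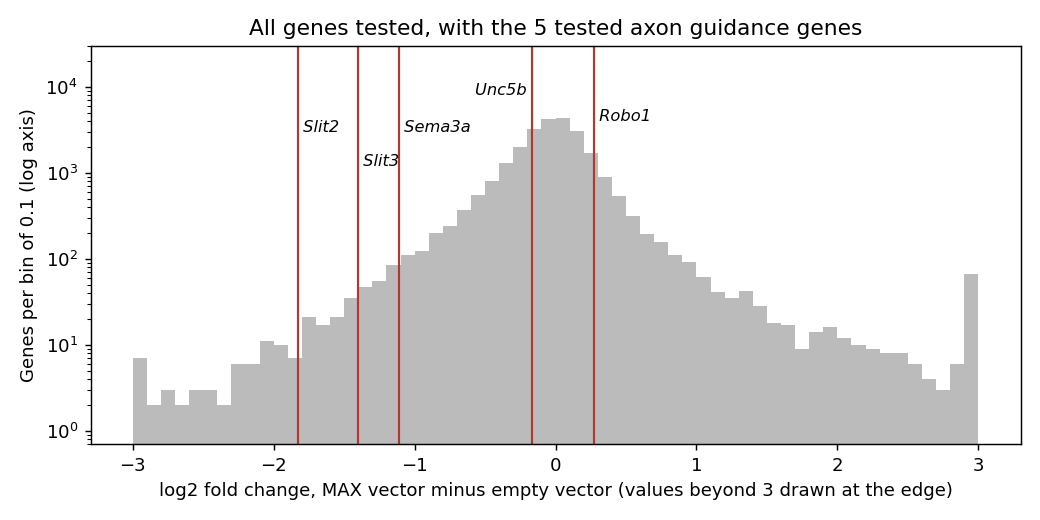
Number of genes (log axis) by log2 fold change, MAX vector minus empty vector, in bins of 0.1 for all 25356 genes tested, with lines at the 5 tested axon guidance genes. Slit3 (-1.40) and Sema3a (-1.11) lie in the lower tail, Unc5b (-0.17) and Robo1 (0.27) near the middle, and Slit2 (-1.83) is the dim probe with a wide interval.

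Whether Slit3 and Sema3a passed depended on the processing. Over the alternatives Slit3 ran from -1.48 to -1.32 and Sema3a from -1.17 to -0.80, its value with normexp. Each gene has 1 probe, so the filters, the mean over probes, the variance model and the replicate block could not move these values and bear only on the p-value. On slide 1 alone, which is the same fit as leaving out MAX vector replicate 1, the fold changes were -1.41 ± 0.14 for Slit3 and -1.17 ± 0.11 for Sema3a, and neither passed there with 3 arrays. With any 1 of the 4 arrays left out, neither gene passed.

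**Figure D3:**
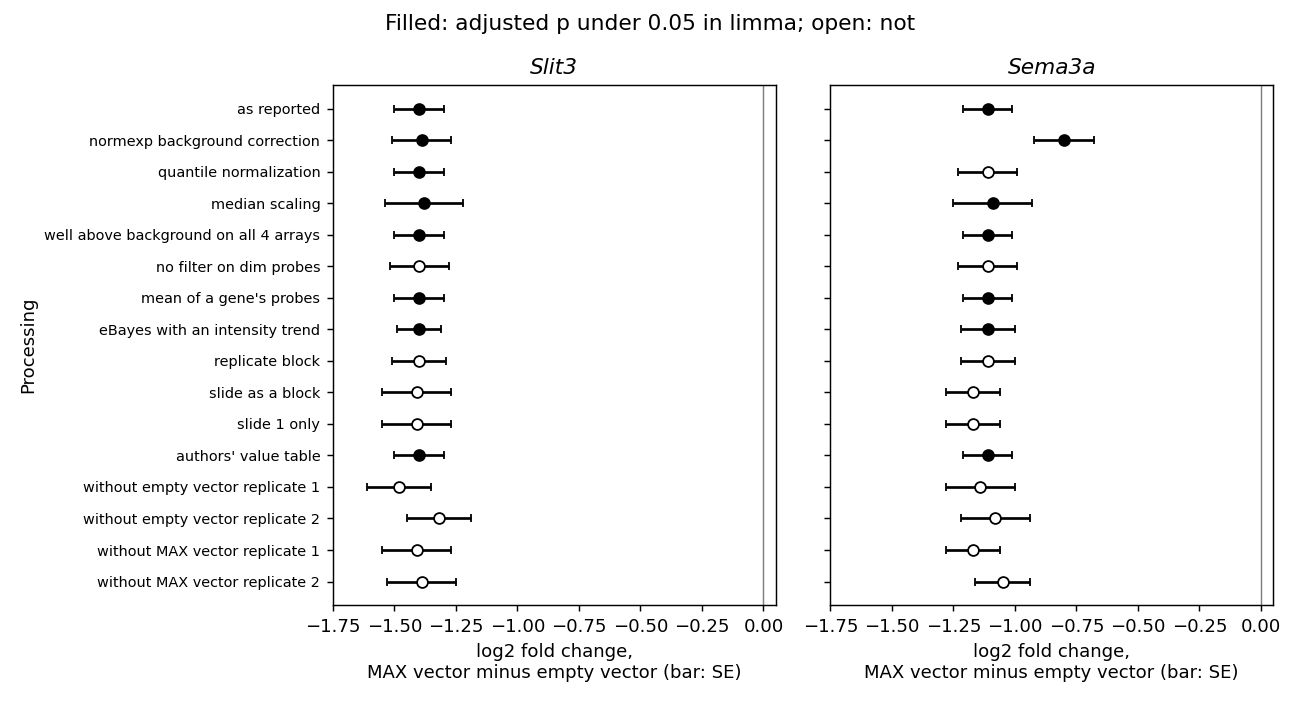
Log2 fold change, MAX vector minus empty vector, with its SE for Slit3 (left) and Sema3a (right) as reported and under each of 15 alternatives, of which the slide block, slide 1 only and leaving out MAX vector replicate 1 are 1 fit. Filled points had an adjusted p under 0.05 in limma, and the points of Slit3 stay between -1.48 and -1.32 whether or not they are filled.

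Of the 12 tested markers of the cells' own type, 9 had a log2 fold change below 0 and 3 above 0. Limma called 1 higher and 1 lower, against 0.840% of all genes tested. An unadjusted p under 0.05 was reached by 4, of which 3 were lower and 1 higher, against 16.1% of all genes. The groups did not overlap in 6 with MAX vector cells lower and in 1 with them higher, against 26.0% and 24.2% of all genes. Th passed as higher, with 665 and 704 in MAX vector cells and 182 and 143 in empty vector cells (log2 fold change 2.15 ± 0.11, adjusted p = 0.0203 in limma). Ddc passed as lower, with 4570 and 5120 in MAX vector cells and 11400 and 10000 in empty vector cells (-1.08 ± 0.08, adjusted p = 0.0391 in limma). The other 10 tested chromaffin and PC12 markers did not pass. The 13 with a probe summed to 7812 and 8742 in MAX vector cells and to 15230 and 13520 in empty vector cells. In this sum Ddc has the highest signal. Marker sums, here and below, are of processed signals before scaling, unlike the fold changes. The 75th percentile of an array was 590.0 and 666.3 in MAX vector cells and 700.5 and 611.4 in empty vector cells.

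Of the tested markers of other cell types, Krt19 was the 1 that passed in limma. All 5 epithelial markers were well above background on every array. Their summed signal was 9035 and 9487 in MAX vector cells and 5052 and 4482 in empty vector cells. All 5 were higher in MAX vector cells, with log2 fold changes from 0.32 to 3.19 (median 0.97). Each had an unadjusted p under 0.05 in limma, against 16.1% of all genes tested. In each the groups did not overlap, against 24.2% of all genes with MAX vector cells higher. The log2 fold change of Krt19 was 3.19 ± 0.18 (adjusted p = 0.0263 in limma). The 4 fibroblast markers summed to 79790 and 96240 in MAX vector cells and to 89340 and 86200 in empty vector cells, so the sums overlapped, and nearly all of that signal was the collagen gene Col3a1. Lum, which encodes the matrix protein lumican, read 302 and 529 in MAX vector cells and 903 and 1010 in empty vector cells (-1.19 ± 0.27, adjusted p = 0.183). Dcn, which encodes the related decorin, had 0.75 ± 0.13 (adjusted p = 0.126). The 6 markers of Schwann cells and glia summed to 271.9 and 389.5 in MAX vector cells and to 360.6 and 356.3 in empty vector cells, which overlapped, with S100b and Erbb3 well above background on 0 of 4 arrays. The 4 macrophage and leukocyte markers summed to 5347 and 5865 in MAX vector cells and to 3402 and 3409 in empty vector cells, and Aif1 was well above background on no array. Most of that sum was Cd14, with 4960 and 5100 in MAX vector cells and 2970 and 2980 in empty vector cells (0.82 ± 0.12, did not pass). Cd68 had 0.43 ± 0.30 and Csf1r 0.06 ± 0.53, and both overlapped between the groups. The 2 endothelial markers summed to 45.0 and 73.4 in MAX vector cells and to 18.6 and 17.2 in empty vector cells, with Pecam1 well above background on no array. Most of that sum was Kdr (1.98 ± 0.23, did not pass). The part of these markers in the lower Slit3 and Sema3a signals was not tested. In bulk RNA, fewer cells that make a transcript and less transcript per cell cannot be told apart.

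The wider guidance genes were read from 6 lists of other ligands, receptors, co-receptors and signalling proteins. Of 129 genes, 46 had a probe named here and 38 were tested. Of these, 0 were higher, 1 was lower and 37 did not pass, against 0.840% of all genes tested, and 12 had an unadjusted p below 0.05 in limma, against 16.1% of all genes tested. Of these 12, 6 were higher and 6 lower. Among the lower, Pak3 was above background on 0 MAX vector arrays and so was tested only through its empty vector arrays. Pak3 read 8.87 and 9.95 in MAX vector cells and 17.8 and 12.7 in empty vector cells. The median log2 fold change of the 38 tested genes was -0.06, against -0.02 over all genes.

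The 1 gene that passed was Sulf2, in the heparan sulfate list, which was written with earlier results of these data known. Sulf2 encodes an extracellular sulfatase that removes sulfate groups from heparan sulfate, the sugar chain that helps Slit bind Robo. Its signals were 54.0 and 62.5 in MAX vector cells and 174 and 172 in empty vector cells, so both MAX vector arrays were lower. Its log2 signal fell by 1.51 ± 0.11 (limma, adjusted p = 0.035), and by 0.87 with normexp. Normexp is a model-based background correction, used here on median spot signals with a constant of 50 then added to each. With any 1 of the 4 arrays left out, Sulf2 did not pass. The other 6 tested genes of that list did not pass. The syndecan genes Sdc4 and Sdc1, whose products carry heparan sulfate chains, had 0.31 ± 0.09 and 0.24 ± 0.09, while Sdc3 had -0.28 ± 0.09. Gpc1, which encodes the proteoglycan glypican-1, had 0.16 ± 0.10.

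Among receptors of semaphorins, the neuropilin genes differed in sign. Nrp2, which encodes a co-receptor used mainly by semaphorins other than 3A, read 220 and 222 in MAX vector cells and 371 and 332 in empty vector cells. Its log2 fold change was -0.61 ± 0.10 (adjusted p = 0.122 in limma), and it passed with normexp (-0.53) and with an intensity trend in the variance model (-0.61). Nrp1, which encodes the semaphorin 3A receptor, read 297 and 266 in MAX vector cells and 306 and 181 in empty vector cells, and had 0.32 ± 0.25 (adjusted p = 0.585). The difference between the 2 neuropilin genes was not tested.

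Limma called 0 of the 4 other semaphorin genes tested, of which 1 had an unadjusted p below 0.05, against 0.840% and 16.1% of all genes tested. Sema4f had 0.29 ± 0.11, Sema4a 0.24 ± 0.08, Sema6b 0.22 ± 0.10 and Sema6c -0.06 ± 0.11 (adjusted p = 0.322, 0.302, 0.404 and 0.815 in limma). These genes encode membrane-bound semaphorins, in contrast to the secreted semaphorin 3A. Both ephrin genes seen on every array lay above 0, with Efna1 at 0.47 ± 0.10 and Efnb1 at 0.27 ± 0.11 (adjusted p = 0.169 and 0.357). Unc5c, another netrin receptor gene, read 18.2 and 32.7 in MAX vector cells and 43.5 and 44.0 in empty vector cells, and had -0.78 ± 0.26 (adjusted p = 0.291).

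Limma called 0 of 20 tested genes of intracellular guidance signalling, and 5 had an unadjusted p below 0.05, 3 higher and 2 lower (Dpysl3 and the kinase gene Pak3, tested only through its empty vector arrays), against 0.840% and 16.1% of all genes. Their median was -0.07. The highest values among genes seen on every array were those of Dpysl5, a gene of the collapsin response mediator family, at 0.50 ± 0.09 (adjusted p = 0.125), and the kinase gene Cdk5 at 0.37 ± 0.09 (0.19). The lowest were those of Dpysl3, of the same family as Dpysl5, at -0.48 ± 0.14 (adjusted p = 0.257), and Enah, which encodes an actin regulator at the leading edge, at -0.28 ± 0.12 (0.375).

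**Figure D4:**
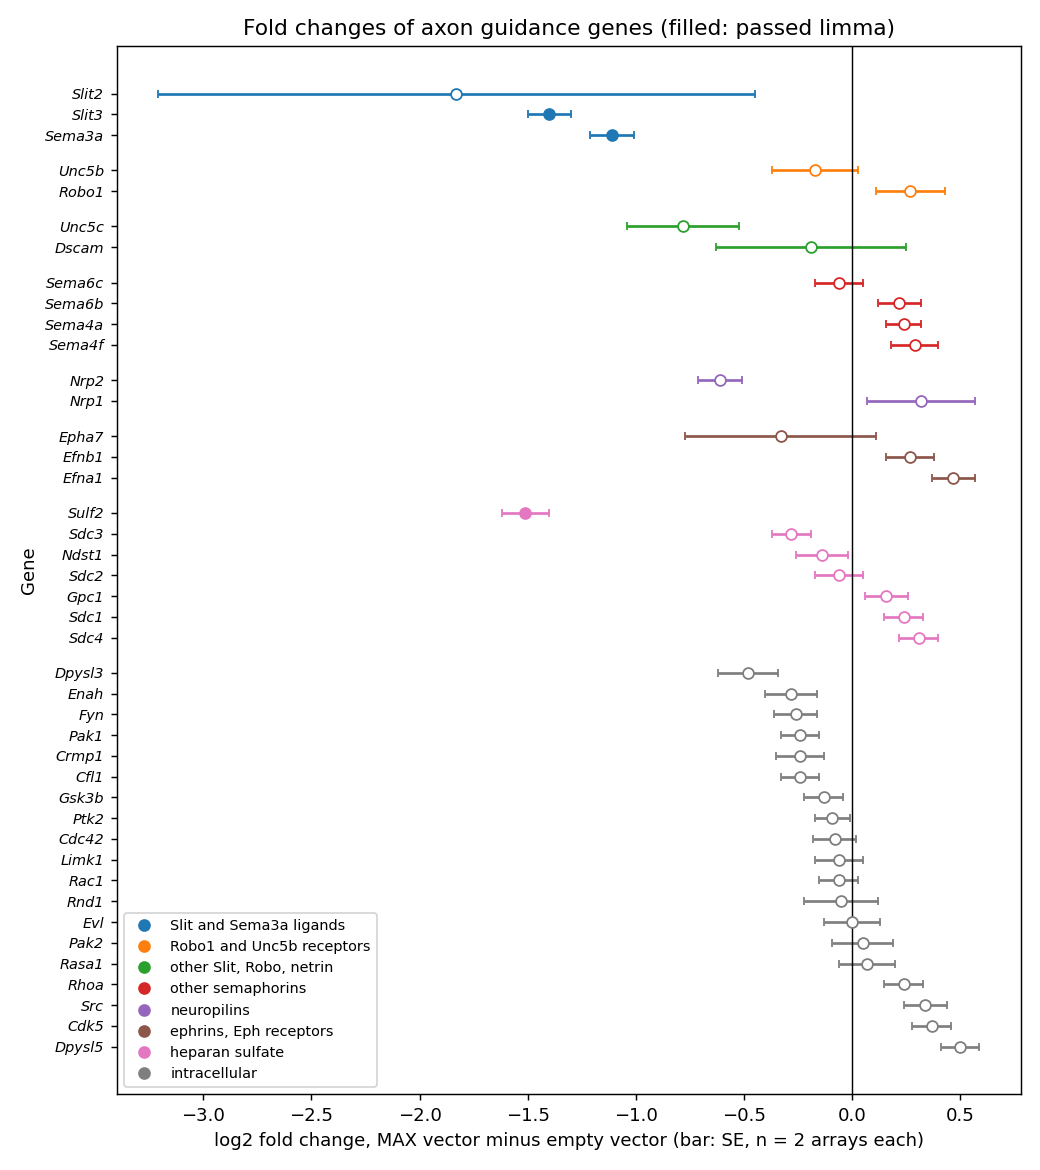
Log2 fold change, MAX vector minus empty vector, with its SE (n = 2 arrays per group) for the tested guidance genes above background on at least 1 array of each group, grouped by role, with filled points for genes that passed in limma. Slit3, Sema3a and Sulf2 are the filled points, at -1.40, -1.11 and -1.51, and Pak3 is not drawn because it was above background on no MAX vector array.

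The genes whose pattern over the 4 arrays was most like that of Slit3 were Sulf2, Pln, Arxes1, Ackr3 and Tppp3. Likeness was the Euclidean distance between log2 values, each gene centred on its own mean, among 5786 genes with a symbol and a signal well above background on every array. The distances were 0.118 for Sulf2, 0.118 for Pln, 0.132 for Arxes1, 0.133 for Ackr3 and 0.173 for Tppp3. Ackr3, which encodes a decoy receptor for the chemokine CXCL12, read 792 and 912 in MAX vector cells and 2399 and 2101 in empty vector cells. Pln, which encodes the calcium pump regulator phospholamban, read 38.7 and 41.0 in MAX vector cells and 101.8 and 102.6 in empty vector cells. With 4 arrays in 2 groups, likeness of this kind says mainly that these genes had a similar difference between the groups.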

How the data were processed

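The 4 deposited scanner files hold spot intensity, written by Feature Extraction 10.7.3.1 per the file headers (10.7 per the submitters' processing notes) with annotation of build rn4. Per the file headers, that software had subtracted background from the processed intensity and detrended it inside each array; no scaling across arrays had been applied. Also deposited was the authors' table of log2 values, centred on a baseline that stays unknown. Differences between its columns matched the scaling used here (SD of the disagreement 4.3e-07 at most, median offsets from -0.0057 to 0.003), so its scale and direction are known. Its column medians were -0.005 and -0.007 for the MAX vector and -0.033 and -0.011 for the empty vector.

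Control spots and spots with an outlier flag (89 to 140 on an array) were left out, a probe's log2 signals were averaged over its spots, and the array's 75th percentile over probes was taken off. A probe was kept if 2 of 4 arrays or more had it well above background, and the brightest stood for its gene. Symbols came from RefSeq accessions matched to the GRCr8 gene table: 10746 of 40923 probes were named. The comparison used lmFit and eBayes of limma 3.58.1 (R 4.3.3), which gave 3.94 total degrees of freedom; p-values were adjusted by Benjamini-Hochberg over all genes, with a threshold of 0.05. Precision is limited by the number of arrays. Only the limma fit and its adjustment were tested on simulated data, drawn as normal values with variances from that fit. The spot averaging, scaling, filter and probe choice were not tested in this way.

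The members and the lists were chosen with earlier results of these data known. Genes named were all members, wider genes that passed, in each wider list the 2 highest and 2 lowest among genes above background on every array, and the 5 nearest to Slit3. Gpc1, Pak3, Lum, Dcn, Cd14, Cd68, Csf1r, Kdr, Dbh, Slc18a1, Chga and Chgb were named after their values were seen. Alternatives covered background correction, scaling, filter, probe choice, variance model, replicate block, slide, the authors' table and each array left out. Normexp used the median spot signals (offset 50), since the files hold no mean signal, and was set after the data were seen.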

Additional observations from a re-analysis of the deposited data

How the results depend on the processing

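In limma, 213 genes passed as reported. More passed with normexp (789), median scaling (541), a filter for probes above background on all 4 arrays (515) and an intensity trend (955). Fewer passed without a filter on dim probes (0, with 4033 under an unadjusted 0.05) and with the slide as a block (8), which is the same fit as slide 1 only (8) and as leaving out MAX vector replicate 1. With 1 array left out, 0 to 144 genes passed. Of the 5 tested genes of the list, 2 passed as reported and with normexp, 1 with quantile normalization (Slit3), and 0 without a filter, with the slide as a block, on slide 1 only or with any 1 array left out (0 to 0). Of the wider guidance genes, 1 passed as reported (Sulf2), 2 with normexp and 2 with an intensity trend (Sulf2 and Nrp2), and 0 without a filter, with the slide as a block, on slide 1 only or with any 1 array left out (0 to 0). Each of these counts of 0 had 2 or 3 listed genes and 4 to 10 wider genes at an unadjusted p under 0.05. Fits on 3 arrays have 1 residual degree of freedom, and where a group keeps 1 array, that array is assumed to vary like the other group.

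Each group was sampled once at passage 8 and once at passage 13, so the arrays pair by passage. The labels do not say which replicate number is which passage, and the main fit left passage out. The replicate block pairs same-numbered arrays, and the crossed pairing was not fitted. The deviations of same-numbered arrays from their group means had a correlation of -0.018 over genes. With the replicate block, limma called 0 genes (unadjusted, 3885 were under 0.05), 0 of the 5 and 0 of the wider genes, and Slit3 and Sema3a did not pass (adjusted p = 0.122 and 0.14); in this balanced design the block cannot move a fold change.

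Slit3 kept its call under 7 of 15 alternatives and Sema3a under 6. These 15 are not separate checks, so the counts do not measure robustness. The slide block, slide 1 only and leaving out MAX vector replicate 1 are 1 fit, and the authors' table holds nearly the same differences as the main values. Unc5b ranged from -0.42 (without MAX vector replicate 1) to 0.08 (without MAX vector replicate 2), where its sign turned, and the cause was not tested. Slit2 ran from -3.45 to -0.21 and Robo1 from 0.08 to 0.44. Signals near background limit what can be said of Slit1, Slit2, Ntn1, Dcc and Unc5a.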
